A study of Mus musculus with 4 samples.

Results

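Sprouty, Spred, dual-specificity phosphatase and ETV genes are switched on by ERK, the last kinase of the growth factor cascade, and several of them feed back to restrain it. The 10 genes Spry1, Spry2, Spry4, Spred1, Spred2, Dusp4, Dusp6, Etv1, Etv4 and Etv5 were taken by gene name from a table of 48178 genes, in which each name had 1 row. All 10 passed the filter on low values (10 or more normalized counts in 2 or more libraries), as did 15204 genes in the table. In neurospheres carrying an FGF13A overexpression allele, Spry1, Spry4 and Dusp6 fell to 0.158, 0.175 and 0.157 of their control means and Etv4 fell to 0.535 of its control mean. Transcripts of Spry2, Spred1, Spred2, Dusp4, Etv1 and Etv5 did not pass the test.

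The RNA came from hippocampal neural progenitor cells of newborn (P0) C57BL/6 mice, cultured as neurospheres for 7 days with FGF-2 and EGF in the medium at 20 ng/ml each. The 2 FGF13Aoe libraries were labelled hGFAPCre+, ROSA26FGF13A LSL/+, and the 2 control libraries hGFAPCre+, ROSA26FGF13A +/+. Both groups therefore carried the same Cre recombinase, under a human GFAP promoter, and both grew in the same 2 factors. FGF13 is an intracellular homologue of the secreted fibroblast growth factors. It is known for binding sodium channels and microtubules and is not a classical ligand of FGF receptors. Cells of 1 mouse were plated into 2 wells, and the labels do not say whether replicates came from separate mice, so p-values measure the spread between these libraries, which may be technical.

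Depth was 9724413 to 14092685 gene-assigned reads per library. Fgf13 counts were 5410 and 4447 in the FGF13Aoe libraries, against 772 and 769 in the control libraries. Among all tested genes 16.2% were higher and 19.1% lower in FGF13Aoe (limma on log2 of the normalized count plus 1, Benjamini-Hochberg adjusted p under 0.05), so a call by itself was common. Of 10 neural progenitor markers, 6 rose and 1 fell, the nestin gene Nes. Sums over the progenitor list were 60936 and 74905 in FGF13Aoe and 71186 and 77086 in control. Vim, which was not called, made up much of these sums (37152 and 43038 in FGF13Aoe, 36082 and 39050 in control). Neuron markers fell (9 of 10, sums 11645 and 14392 against 42707 and 33344). Map2, the 1 neuron marker not called, made up much of the FGF13Aoe sums (7195 and 10154, against 11991 and 10636 in control). Markers of astrocytes (6 of 10 rose, sums 195560 and 211485 against 80646 and 59337) and oligodendrocytes (7 of 8 rose, sums 38030 and 37192 against 3657 and 6389) rose. Mog, the 1 oligodendrocyte marker not called, had a log2 change of -1.39 (13.3 and 28.3 in FGF13Aoe, 72.3 and 38.2 in control). Gfap made up much of the astrocyte sum (111437 and 135769 in FGF13Aoe, 30384 and 12876 in control), and its call was lost without control replicate 2 (adjusted p = 0.09786). Of the astrocyte markers 4 rose without control replicate 1 and 3 without control replicate 2.

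ERK signalling begins when FGF or EGF binds its receptor at the cell surface. Adaptor proteins then load RAS with GTP, and RAF, MEK and ERK kinases act in turn. Sprouty and Spred proteins interfere with the steps between receptor and RAF, Dusp6 and Dusp4 remove phosphate from ERK itself, and the ETV factors carry the signal to target genes. In the developing forebrain the ETV and Sprouty genes are known as readouts of FGF signalling. Their RNA is a readout of transcription and stability, and protein or ERK phosphorylation was not measured.

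Of the 10 genes 4 fell and 0 rose, beside 19.1% lower and 16.2% higher of all tested genes. An unadjusted limma p under 0.05 was found for 5 of the 10, beside 7307 of the 15204 tested genes, which is a similar share. The median log2 change of the 10 was -0.90, against -0.01 over all tested genes. It was -1.26 without FGF13Aoe replicate 1 and -0.53 without FGF13Aoe replicate 2. Here and below, a fit without 1 FGF13Aoe library takes its spread from the control libraries alone. A fall of at least 1 log2 unit was found in 3 of the 10, beside 11.6% of all tested genes. Both FGF13Aoe libraries lay below both control libraries for 7 genes (37.5% of all tested genes) and above them for 1 gene, Etv1 (36.2%). For Spry2 and Spred1 the groups overlapped. In bulk RNA, fewer cells of a type and less RNA per cell cannot be told apart, and the part of the shifts in neuron, astrocyte and oligodendrocyte markers in these results was not tested.

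**Figure D1:**
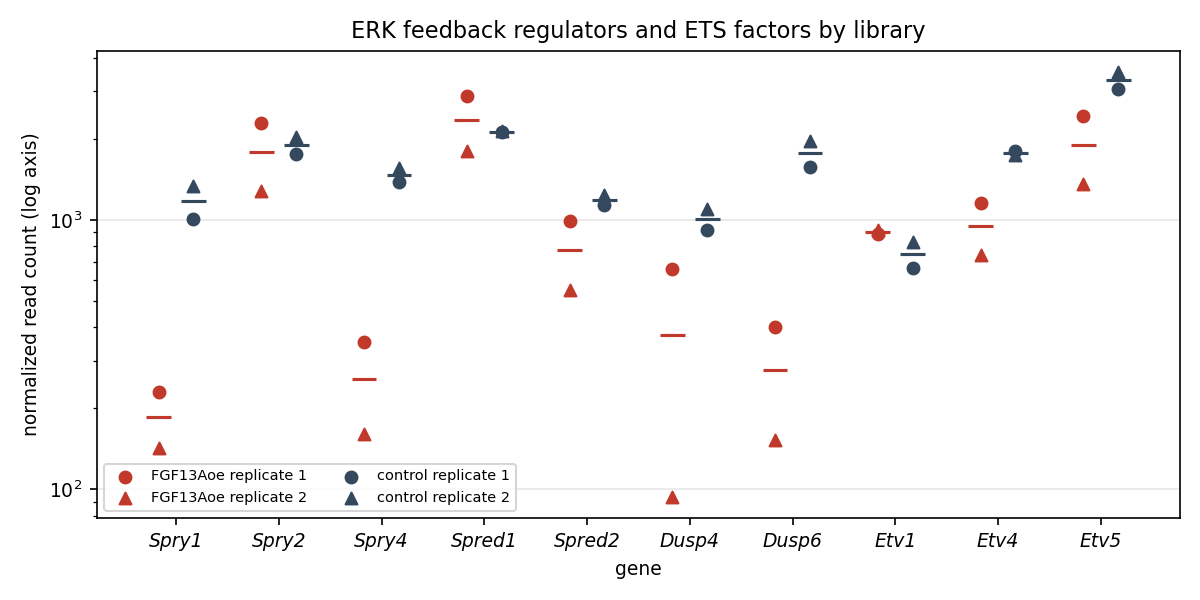
Normalized read count (log axis) of the 10 genes in each library, FGF13Aoe left and control right for each gene, with short bars at the group means. Spry1, Spry4 and Dusp6 sit between 143 and 402 in FGF13Aoe and between 1009 and 1958 in control, while the groups overlap for Spry2 and Spred1.

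Sprouty proteins are docking inhibitors that receptor kinases phosphorylate and that blunt RAS and RAF activation. Spry1 (ENSMUSG00000037211, GRCm38 chromosome 3, 37639947 to 37644598, plus strand) had normalized counts of 230 and 143 in the FGF13Aoe libraries and 1009 and 1340 in the control libraries. Both FGF13Aoe values lay far below both control values. The log2 change was -2.68 ± 0.27 (SE; 2 libraries per group, limma adjusted p = 0.002369), and the ratio of control to FGF13Aoe means was 6.31. Of its exonic bases 24.4% overlap Gm42922 on the opposite strand, a predicted gene with at most 1.98 normalized counts in any library.

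Spry4 (ENSMUSG00000024427, chromosome 18) had counts of 353 and 161 in FGF13Aoe and 1385 and 1555 in control. The groups were again well apart, although the FGF13Aoe libraries differed 2.19-fold between themselves. Its log2 change was -2.62 ± 0.36 (SE; 2 libraries per group, limma adjusted p = 0.005164). Spry1 and Spry4 were called lower without each library in turn, with log2 changes of -3.02 to -2.34 for Spry1 and -3.18 to -2.05 for Spry4.

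Spry2 (ENSMUSG00000022114, chromosome 14, 105891947 to 105896819, minus strand), the most abundant Sprouty gene per length here, went with neither of them. Its counts were 2298 and 1275 in FGF13Aoe and 1759 and 2028 in control, so the 2 control values lay between the 2 FGF13Aoe values. The log2 change was -0.14 with a 95% interval of -0.83 to 0.55 (limma adjusted p = 0.7149), an interval that does not reach the fitted falls of Spry1 and Spry4. It was -0.57 without FGF13Aoe replicate 1 (adjusted p = 0.02666) but 0.28 when FGF13Aoe replicate 2 was left out (adjusted p = 0.135), and adjusted p ran from 0.02666 to 0.9558 over the alternatives.

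Within a library, ratios between Sprouty genes remove scaling and depth. The ratio of Spry1 to Spry2 counts was 0.0999 and 0.112 in FGF13Aoe and 0.574 and 0.661 in control. The ratio of Spry4 to Spry2 was 0.154 and 0.126 in FGF13Aoe and 0.787 and 0.767 in control. By contrast the ratio of Spry1 to Spry4 was 0.651 and 0.887 in FGF13Aoe and 0.729 and 0.861 in control, so here the groups overlapped. An exact two-sided permutation test of 2 against 2 libraries cannot give a p below 0.333, so these ratios are given as values.

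The promoters of 3 members are shown because Spry1 and Dusp6 fell together while Spry2 did not pass the test. RefSeq promoter windows (GRCm38.p6, 250 bases before to 50 bases after the annotated start) were found for 7 of the 10 genes, in 9 windows, none of them of Spry4, Dusp4 or Etv4. They were searched on both strands for the ETS site CCGGAA, for the octamers TGAATGAA, TGAATGGA, TCAATGAA and TCAATGGA bound by Capicua (a repressor of ETV genes that ERK removes from DNA), for the AP-1 site TGANTCA and for the cyclic AMP response element TGACGTCA. Capitals mark matches on either strand, and sequences run 5′ to 3′ on the gene's own strand.
Spry1, chr3:37639697-37639996, plus strand: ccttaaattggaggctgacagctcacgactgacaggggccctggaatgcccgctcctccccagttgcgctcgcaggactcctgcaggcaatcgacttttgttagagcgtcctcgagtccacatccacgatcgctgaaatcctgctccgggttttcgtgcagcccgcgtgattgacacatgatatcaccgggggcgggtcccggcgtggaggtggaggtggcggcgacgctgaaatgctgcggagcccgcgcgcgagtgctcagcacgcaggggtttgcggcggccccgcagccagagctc
Dusp6, chr10:99262981-99263280, plus strand: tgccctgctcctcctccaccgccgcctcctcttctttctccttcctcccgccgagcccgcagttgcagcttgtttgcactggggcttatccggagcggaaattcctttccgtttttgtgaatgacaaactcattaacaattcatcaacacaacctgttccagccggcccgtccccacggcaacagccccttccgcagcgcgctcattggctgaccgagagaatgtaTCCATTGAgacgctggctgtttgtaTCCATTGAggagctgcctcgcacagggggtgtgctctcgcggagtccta
Spry2, chr14:105896770-105897069, minus strand: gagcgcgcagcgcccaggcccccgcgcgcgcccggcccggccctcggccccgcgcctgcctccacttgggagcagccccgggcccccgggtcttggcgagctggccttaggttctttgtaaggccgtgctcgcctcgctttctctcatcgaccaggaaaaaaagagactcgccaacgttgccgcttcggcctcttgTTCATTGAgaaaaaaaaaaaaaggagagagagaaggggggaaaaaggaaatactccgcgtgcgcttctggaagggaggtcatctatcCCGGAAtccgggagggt
The Dusp6 window held a Capicua octamer at 2 places, in reverse orientation (TCCATTGA), starting 24 bases before and 1 base after the start site. The Spry2 window held 1 octamer (TTCATTGA), starting 54 bases before the start site, and an ETS site 33 bases after it, with no overlap between the matches. Spry1 had no match to the 4 motifs, and neither had the windows of Spred1, Spred2, Etv1 and Etv5. Over all 32851 mouse promoter windows 14.9% held the ETS site, 3.84% a Capicua octamer, 7.81% the AP-1 site and 1.79% the cyclic AMP response element. A match describes letters in a window and is no evidence of binding, and here a matched window belonged to a gene that fell and to one that did not pass.

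Spred proteins share the Sprouty domain and recruit neurofibromin, which turns RAS off. Spred1 (ENSMUSG00000027351, chromosome 2, 117121374 to 117182279, plus strand) had counts of 2879 and 1804 in FGF13Aoe and 2119 and 2138 in control. The near-identical control values lay between the 2 FGF13Aoe values. Its log2 change was 0.10 with a 95% interval of -0.46 to 0.66 (limma adjusted p = 0.7551). The sign turned without FGF13Aoe replicate 1 (-0.24, adjusted p = 0.1173), whereas Spred1 was called higher without FGF13Aoe replicate 2 (0.44, adjusted p = 0.02423, the lowest of a range up to 0.8787).

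Spred2 (ENSMUSG00000045671, chromosome 11, 19924375 to 20024026, plus strand) had counts of 994 and 549 in FGF13Aoe and 1136 and 1241 in control. Both FGF13Aoe values were below both control values, the first of them by little. The log2 change of -0.68 ± 0.28 (SE; 2 libraries per group) did not pass (limma adjusted p = 0.105). It was -1.11 without FGF13Aoe replicate 1 (adjusted p = 0.004231) but -0.26 without FGF13Aoe replicate 2 (adjusted p = 0.132), with adjusted p of 0.004231 to 0.335 over the alternatives. The ratio of Spred2 to Spred1 counts was 0.345 and 0.304 in FGF13Aoe and 0.536 and 0.58 in control.

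The MAP kinase phosphatases Dusp6 and Dusp4 inactivate ERK in the cytoplasm and in the nucleus. Dusp6 (ENSMUSG00000019960, chromosome 10, 99263231 to 99267489, plus strand), whose promoter is printed above, had counts of 402 and 152 in FGF13Aoe and 1578 and 1958 in control. The higher FGF13Aoe library was still far below the lower control library. Its log2 change of -2.82 ± 0.44 (SE; 2 libraries per group, limma adjusted p = 0.007289) was the lowest of the 10, and 2.68% of all tested genes had a lower one. Dusp6 was called without each library in turn (-3.52 to -2.12) but not by DESeq2 on reads of 3 libraries (-2.81, adjusted p = 0.08644, the highest of a range from 7.746e-05), and the ratio of control to FGF13Aoe means was 6.38.

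Dusp4 (ENSMUSG00000031530, chromosome 8, 34807297 to 34819894, plus strand) had counts of 656 and 94.1 in FGF13Aoe and 915 and 1102 in control. FGF13Aoe replicate 1 lay near the control libraries and FGF13Aoe replicate 2 was 6.97-fold below it. The log2 change of -2.01 had a standard error of 0.83 and a 95% interval of -4.07 to 0.05 (limma adjusted p = 0.1107), so its size was poorly determined. It was -3.40 without FGF13Aoe replicate 1 but -0.61 without FGF13Aoe replicate 2, in fits that leave out the spread between these 2 libraries. The authors' deposited table gave Dusp4 a log2 fold change of -0.84 ± 0.70 (SE; adjusted p = 0.3987). The ratio of Dusp6 to Dusp4 counts was 0.613 and 1.61 in FGF13Aoe and 1.72 and 1.78 in control.

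Etv1, Etv4 and Etv5 form the PEA3 subfamily of ETS transcription factors, which act downstream of FGF receptors. Etv4 (ENSMUSG00000017724, chromosome 11, 101769742 to 101785371, minus strand) had counts of 1156 and 743 in FGF13Aoe and 1807 and 1741 in control. The control libraries were close together and both FGF13Aoe libraries were below them. Etv4 fell by 0.94 on the log2 scale (SE 0.22; 2 libraries per group, limma adjusted p = 0.02311). The call ended without control replicate 1 (-0.91, adjusted p = 0.1184) and without control replicate 2 (-0.96, adjusted p = 0.09961), where the lone control library takes its spread from the FGF13Aoe libraries, and adjusted p ran from 0.001492 to 0.1216 over the alternatives.

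Etv5 (ENSMUSG00000013089, chromosome 16, 22381309 to 22439719, minus strand), the member with the highest control counts, had counts of 2420 and 1359 in FGF13Aoe and 3053 and 3539 in control. The groups did not overlap, and the gap between them was smaller than the gap between the FGF13Aoe libraries. Its log2 change of -0.86 ± 0.28 (SE; 2 libraries per group) missed the threshold (limma adjusted p = 0.05806). The authors' deposited table called Etv5 lower (log2 fold change -0.78 ± 0.26, SE; adjusted p = 0.01389) and with it Spry1, Spry4, Dusp6 and Etv4, that is 5 of the 10 genes beside 16.6% of the 16301 genes to which it gave an adjusted p. Etv5 was -1.27 without FGF13Aoe replicate 1 (adjusted p = 0.003938) but -0.44 without FGF13Aoe replicate 2 (adjusted p = 0.0493), with adjusted p up to 0.2246 over the alternatives.

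Etv1 (ENSMUSG00000004151, chromosome 12, 38779380 to 38870484, plus strand) had counts of 887 and 920 in FGF13Aoe and 661 and 830 in control. It was the member whose FGF13Aoe libraries both lay above both control libraries. The log2 change was 0.29 with a 95% interval of -0.08 to 0.65 (limma adjusted p = 0.1806), and Etv1 was not called under any alternative tried. Within libraries the ratio of Etv4 to Etv1 counts was 1.30 and 0.807 in FGF13Aoe and 2.73 and 2.10 in control, and that of Etv5 to Etv1 was 2.73 and 1.48 in FGF13Aoe and 4.62 and 4.26 in control. Etv4 over Etv5 was 0.478 and 0.547 in FGF13Aoe and 0.592 and 0.492 in control, with overlapping groups.

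**Figure D2:**
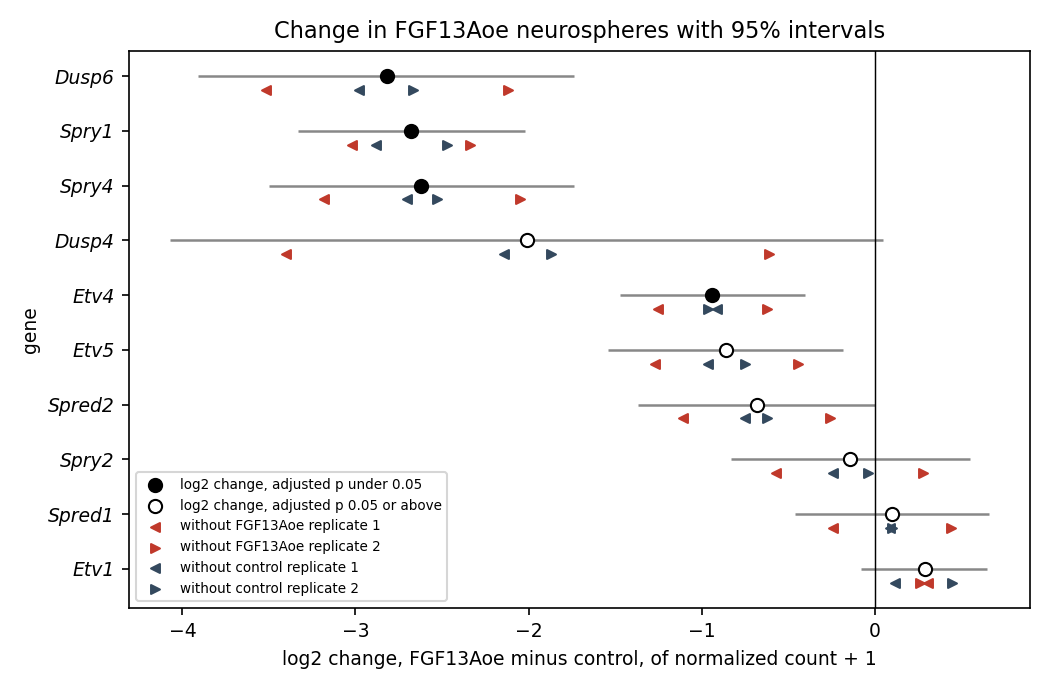
Log2 change (FGF13Aoe minus control, of the normalized count plus 1) of each gene with its 95% interval, filled where the limma adjusted p was under 0.05, and triangles for the change with 1 library left out. Dusp6, Spry1 and Spry4 lie at -2.82 to -2.62 and stay below -2 without any 1 library, while Dusp4 moves between -3.40 and -0.61.

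Per kilobase of exon, the mean levels of the 10 genes ran from 56.1 (Etv1) to 907 (Spry2) normalized reads in control. Spry2 led in control with 843 and 972 normalized reads per kilobase, and Etv5 followed with 744 and 862, the ranges of the 2 genes overlapping. Etv4 (582 and 561) and Dusp6 (504 and 625) came next and overlapped each other. Then came Spry1 (347 and 461), Dusp4 (334 and 402), Spred1 (312 and 315), Spry4 (291 and 327) and Spred2 (246 and 269), of which Spry1 overlapped Dusp4 and Spred1 overlapped Spry4. Etv1 was last with 49.7 and 62.4, apart from the rest, and its exons cover 13.3 kb in the annotation, which lowers a level taken per length of all annotated exons.

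In FGF13Aoe libraries Spry2 still led with 1100 and 611 normalized reads per kilobase, and its range overlapped none of the other 9 genes. Etv5 (590 and 331), Spred1 (424 and 266) and Etv4 (373 and 239) overlapped each other, and Spred2 (215 and 119) and Dusp4 (239 and 34.4) came after them. Dusp6 stood at 128 and 48.5, Etv1 at 66.7 and 69.2, Spry1 at 79.0 and 49.1 and Spry4 at 74.2 and 33.8. These 4 ranges overlapped, so that the levels of Dusp6, Spry1 and Spry4 lay around that of Etv1, while in control each was above it.

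**Figure D3:**
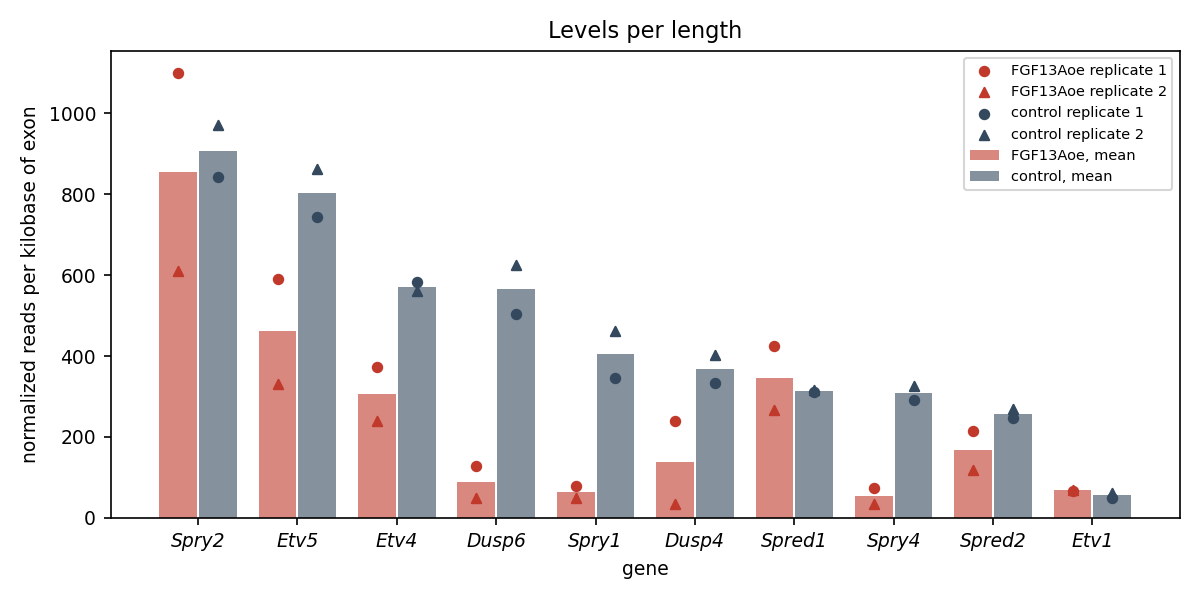
Normalized reads per kilobase of annotated exon, with bars at the mean of 2 libraries and points for each library, FGF13Aoe left and control right, genes in order of their control mean. Dusp6, Spry1 and Spry4 average 54.0 to 88.5 in FGF13Aoe and 309 to 565 in control, and Etv1 averages 67.9 in FGF13Aoe and 56.1 in control.

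The FGF13Aoe libraries differed from each other in these genes, with Dusp4, Dusp6 and Spry4 furthest apart. FGF13Aoe replicate 2 was below replicate 1 for 9 of the 10 genes, beside 48.7% of all tested genes, the exception being Etv1. The median log2 difference of replicate 2 minus replicate 1 was -0.84 over the 10 genes and 0.01 over all tested genes, whose SD was 0.59. For Etv4, the smallest difference of the 9, 10.5% of all tested genes had a lower value, and for Dusp4 0.263% had. Dusp4 (-2.79), Dusp6 (-1.40) and Spry4 (-1.13) lay beyond the 5th percentile of all tested genes (-1.01). In control the differences were small, from -0.05 to 0.41 with a median of 0.21, and replicate 2 was above replicate 1 for 9 genes (53% of all tested genes). A fit without 1 FGF13Aoe library takes its spread from the control libraries alone, so its calls leave out the spread between FGF13Aoe libraries. Without FGF13Aoe replicate 1, 8 of the 10 genes were called lower and 0 higher, beside 20.2% and 15% of all tested genes. Without FGF13Aoe replicate 2, 6 were called lower and 1 higher, beside 22.7% and 18.6% of all tested genes. With control replicate 1 left out, 3 were lower and 0 higher (5.7% and 3.62% of all tested genes), and with control replicate 2 left out, 3 and 0 (6.41% and 5.06%).

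Immediate early genes, which ERK can induce within minutes, showed the same order between the FGF13Aoe libraries. ERK activity was not measured in these libraries. Of 18 tested, 17 were lower in FGF13Aoe replicate 2 than in replicate 1, beside 48.7% of all tested genes. Their median log2 difference was -1.07, against 0.01 over all tested genes. Ier3 had counts of 2853 and 390 in FGF13Aoe replicates 1 and 2 and 301 and 858 in control. Junb had 1953 and 464 in FGF13Aoe and 241 and 337 in control. These 2 genes were chosen after their values were seen. Summed meningeal fibroblast markers also differed, with 11652 and 3315 in FGF13Aoe replicates 1 and 2 and 1962 and 1715 in control, nearly all of it in FGF13Aoe from Fn1, the fibronectin gene (11395 and 3130). Fn1 was the 1 marker of this list called higher, while Col1a2, Col3a1 and Dcn were called lower (log2 changes -2.24, -3.45 and -3.63), the median of the 6 tested was -1.32, and Lum was at 0 in FGF13Aoe replicate 2. Microglia and macrophage markers summed to 70.1 and 120 in FGF13Aoe and 529 and 198 in control, with Tmem119 at 0 in both FGF13Aoe libraries. Endothelial and pericyte markers summed to 443 and 250 in FGF13Aoe and 632 and 603 in control, with Cldn5 and Kcnj8 at 0 in FGF13Aoe replicate 2. Rgs5, the 1 marker of this list called, made up much of the control sum (56.8 and 36.4 in FGF13Aoe, 327 and 382 in control). Of the 5 tested markers 3 had a positive log2 change, and the median was 0.45. Oligodendrocyte progenitor markers summed to 24049 and 36295 in FGF13Aoe and 21787 and 25382 in control. Of these 6 markers 2 rose, beside 16.2% of all tested genes. The part of these cells in the replicate difference was not tested.

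**Figure D4:**
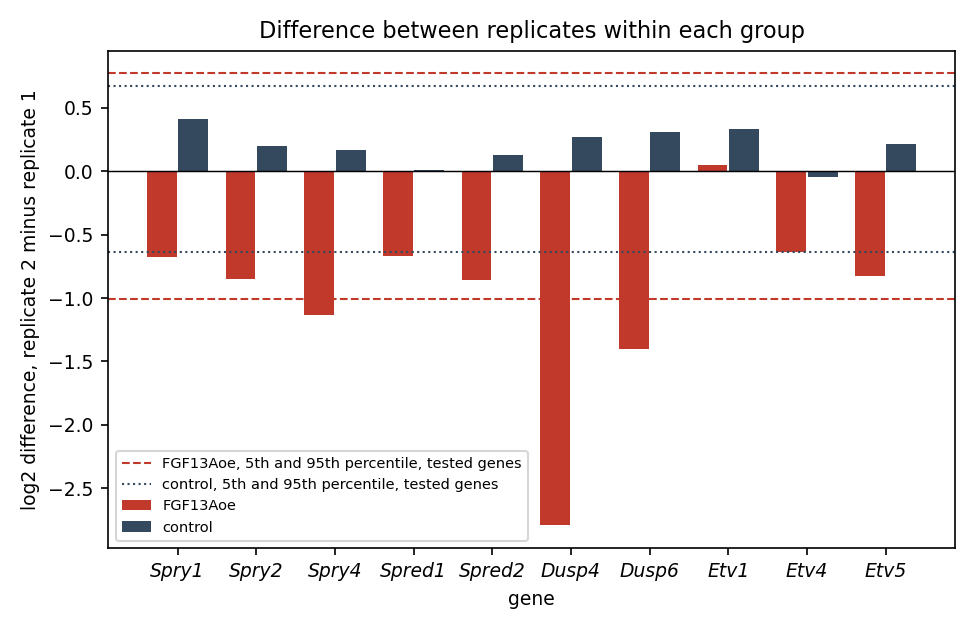
Log2 difference of replicate 2 minus replicate 1 within FGF13Aoe and within control for each gene, with lines at the 5th and 95th percentiles of all tested genes in each group. Bars of FGF13Aoe point down for 9 genes, most for Dusp4 at -2.79, and bars of control stay between -0.05 and 0.41.

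Relatives of these genes were lower in part. Of 10 further Sprouty, Spred and MAP kinase phosphatase genes 5 fell and 0 rose, beside 19.1% and 16.2% of all tested genes. The median log2 change was -0.61. Dusp8, a phosphatase of the stress kinases JNK and p38, fell by 1.66 on the log2 scale (327 and 252 in FGF13Aoe, 1046 and 796 in control). Dusp10, which acts on the same kinases, fell by 0.97 (158 and 163 against 319 and 313), Spred3 fell by 0.79 (673 and 444 against 909 and 991) and Dusp1 fell by 0.71 (181 and 149 against 288 and 251). Dusp2 was barely detected in FGF13Aoe (2.42 and 2.02 against 13.9 and 12.2, log2 change -2.12). Dusp16 did not pass (733 and 756 against 719 and 936). Dusp9, named for the largest rise of this list, went the other way at low counts (31.4 and 13.2 against 0.991 and 7.32). Its log2 change of 2.4 did not pass (limma adjusted p = 0.07123). Of the 5 calls, that of Dusp8 held without each library in turn, and without either control library it was the single fall left, with 1 rise beside it when control replicate 2 was left out. Adjusted p of the lost calls was 0.06399 to 0.2428.

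A published score of MAPK pathway activity in human tumours combines Spry2, Spry4, Dusp4, Dusp6, Etv4 and Etv5 with Phlda1, Ccnd1, Epha2 and Epha4. Ccnd1, the gene of cyclin D1 that drives entry into S phase, had counts of 581 and 415 in FGF13Aoe and 10861 and 12426 in control. That is a log2 change of -4.56 ± 0.19 (SE; 2 libraries per group, limma adjusted p = 0.001114), larger than in any of the 10 genes. The ephrin receptor gene Epha2 fell by 2.96 on the log2 scale (61.6 and 11.1 in FGF13Aoe, 162 and 280 in control), a call lost without control replicate 1 (adjusted p = 0.08561) and without control replicate 2 (0.1422). Phlda1 (105 and 116 against 146 and 178, adjusted p = 0.0998) and Epha4 (774 and 1058 against 1506 and 988, adjusted p = 0.2195) had log2 changes of -0.54 and -0.43 and did not pass.

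Immediate early genes had a median log2 change of -0.18 between the groups. They went both ways, with 2 of 18 higher and 2 lower, beside 16.2% and 19.1% of all tested genes. The median depended on the FGF13Aoe library used, at -0.57 without FGF13Aoe replicate 1 and 0.19 without FGF13Aoe replicate 2. Fos had counts of 1474 and 1436 in FGF13Aoe and 834 and 579 in control and rose by 1.06 on the log2 scale, and Egr2 rose by 2.65 (910 and 443 against 58.4 and 172). Arc, an activity-regulated gene of neurons, fell by 2.43 (49.5 and 19.2 against 132 and 222) and Egr4 by 3.34 (4.83 and 0 against 17.8 and 30.9). The abundant genes Egr1 (2143 and 1024 against 2247 and 1895) and Jun (1857 and 1446 against 1612 and 1760) did not pass. Each of the 4 calls was lost without 1 library or another, at adjusted p of 0.05366 to 0.1566: Fos without control replicate 2, Egr2 without control replicate 1 or FGF13Aoe replicate 1, and Arc and Egr4 without either control library.

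Transcripts of the cascade that leads to these genes showed no common direction. Of 22 adaptors and kinases 6 rose and 3 fell, beside 16.2% and 19.1% of all tested genes, with a median log2 change of 0.00. The docking protein gene Gab1 had counts of 2959 and 2908 in FGF13Aoe and 1239 and 1213 in control and rose by 1.26 on the log2 scale, while Hras fell by 1.24 (390 and 286 against 775 and 811), and both calls held without each library in turn. Mapk3, which encodes the kinase ERK1, rose by 0.81 (2314 and 1919 against 1139 and 1269). Rps6ka1, a kinase that ERK activates, fell by 1.25, and the adaptor gene Frs2 and the exchange factor gene Sos2 each rose by 0.62. Ptpn11, the SHP2 phosphatase gene, did not pass (-0.36, adjusted p = 0.08751). Apart from Gab1 and Hras, each call of this list was lost without 1 library or another. The median log2 change stayed between -0.06 and 0.07 with 1 library left out. Without control replicates 1 and 2 in turn, adjusted p was 0.121 and 0.1293 for Frs2, 0.09984 and 0.1551 for Sos2 and 0.0961 and 0.05876 for Mapk3. Rps6ka1 lost its call without control replicate 1 (0.07063), and over all lost calls of the list adjusted p ran up to 0.3007.

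Of 7 tested FGF and EGF receptor genes 4 rose and 0 fell, beside 16.2% and 19.1% of all tested genes. The median log2 change was 0.62. Erbb2 rose by 1.43 on the log2 scale (600 and 536 in FGF13Aoe, 180 and 244 in control), Fgfr3 by 1.09 (2398 and 2705 against 1359 and 1058), Erbb3 by 1.71 and Fgfr2 by 0.62. Receptors for the factors in the medium did not pass in the case of Fgfr1 (6346 and 3012 against 3799 and 3166) and Egfr (3228 and 4418 against 3357 and 4160). Without control replicate 1 and without control replicate 2 the rises numbered 2 and 1, Erbb2 being called each time.

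Among 13 other inhibitors of the pathway 2 rose and 1 fell, beside 16.2% and 19.1% of all tested genes. The median log2 change was -0.03. Il17rd, an FGF-induced membrane inhibitor also called Sef, rose by 1.03 on the log2 scale (634 and 836 in FGF13Aoe, 362 and 352 in control), opposite in sign to Spry1, Spry4 and Dusp6. The RAS GTPase-activating protein gene Rasa2 rose by 0.76 and Dab2ip, of the same class, fell by 0.79, whereas Lrig1 (6974 and 6726 against 5435 and 6424) and Pebp1 (4775 and 5486 against 5829 and 6154) did not pass. The 3 calls were all lost without control replicate 1 and without control replicate 2. The median log2 change was -0.13 without FGF13Aoe replicate 1 and 0.13 without FGF13Aoe replicate 2.

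Of 13 tested ETS genes outside the PEA3 subfamily 3 rose and 0 fell, beside 16.2% and 19.1% of all tested genes. The median log2 change was 0.37. The 3 were Elf1 (1.19), Elf2 (0.96) and Gabpa (0.53), widely expressed members of the family. Elf2 had counts of 1565 and 1244 in FGF13Aoe and 679 and 761 in control. Erf, an ETS repressor that ERK exports from the nucleus, did not pass (884 and 764 against 852 and 1012). Elf1 and Gabpa lost their calls without either control library, and Elf2 lost its call without control replicate 1. The median log2 change was 0.16 without FGF13Aoe replicate 1 and 0.30 without FGF13Aoe replicate 2. Fli1 and Erg were too low to be tested.

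**Figure D5:**
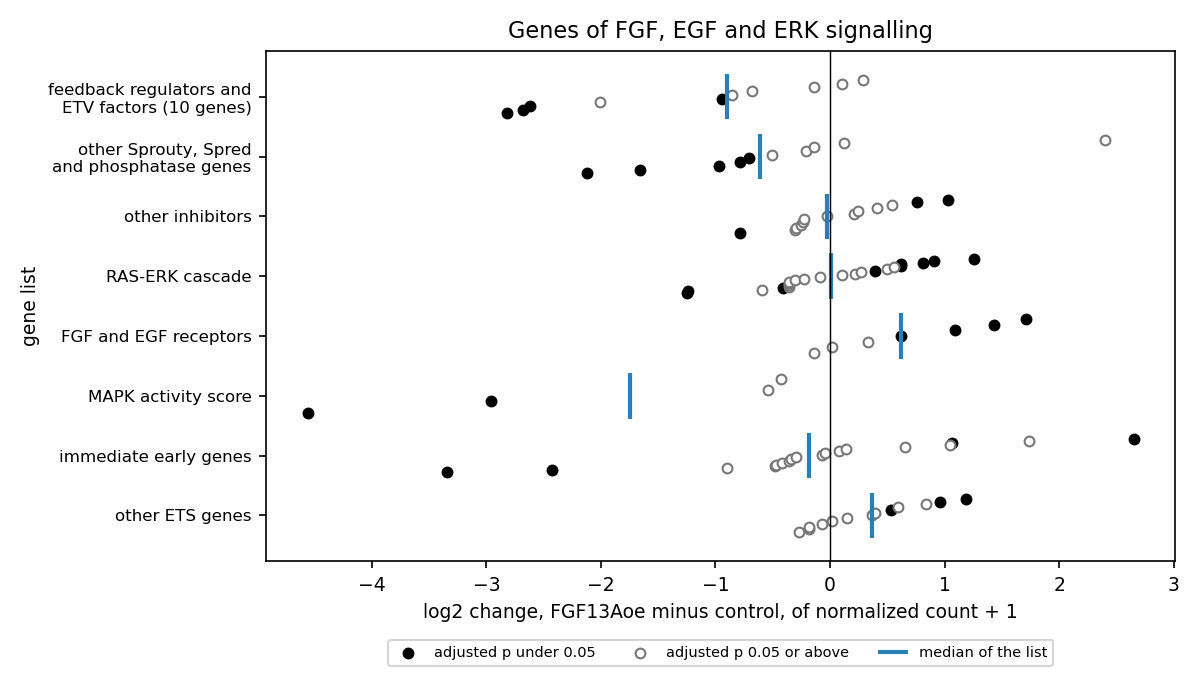
Log2 change (FGF13Aoe minus control, of the normalized count plus 1) of each tested gene in 8 lists, filled where the limma adjusted p was under 0.05, with a vertical line at each list's median. The median of the 10 feedback and ETV genes is -0.90 and that of the cascade genes 0.00, and Ccnd1 is the leftmost point at -4.56.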

How the data were processed

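Sample titles gave the groups and replicate numbers. The authors deposited a normalized read signal per gene and library, whole multiples of 1 step per library (100% of values, tolerance 1e-06), with their log2 fold change, its standard error and Wald score, p-value and adjusted p-value. Submitters' processing notes name STAR, DESeq2 and mm10. Versions, annotation release and use of strand: not given in the sources used here. Dividing by the step gave the read totals. Recovered reads were accepted only where the step differed more than 1.01-fold from 1. Control replicate 1 (step 0.991) narrowly failed this cutoff, and FGF13Aoe replicate 2 (step 1.01 after rounding) narrowly passed it. Count tests therefore used the other 3 libraries, with 1 control library among them.

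The main test was limma 3.58.1 (R 4.3.3) with an intensity trend on log2(normalized count + 1), two-sided, on 15204 genes with at least 10 in at least 2 libraries, Benjamini-Hochberg adjusted over all of them. Log2 changes on this scale understate the change of low genes. Intervals are at 95%. Alternatives were another pseudocount, filter or scaling, no trend, a replicate block, the authors' p-values, edgeR 4.0.16 and DESeq2 1.42.0 on recovered reads, and each library left out. The procedure was tested on simulated counts. Members, lists and motifs were chosen with earlier results of these data known. Named list genes are called ones (up to 6 per list by smallest p) and the 2 most abundant, with exceptions stated. Some genes the rule took are not named. Exon lengths and positions are from GENCODE M21 (GRCm38, the assembly mm10 names), whose release may differ from the authors'. Reads of the FGF13Aoe replicates differed beyond sampling noise (a chi-square of 26.6 per degree of freedom). For control the value was 10.3, taking the step of control replicate 1 as 1 read although it was not accepted for count tests.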

Additional observations from a re-analysis of the deposited data

How the results depend on the processing

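Spry1 and Spry4 were called lower under each alternative tried, and Etv1 under none. Of the 10 genes, the number lower was 4 as reported, 3 to 8 with 1 library left out, 2 by DESeq2 on 3 libraries (Dusp6 -2.81, adjusted p = 0.08644, over a range from 7.746e-05, and Etv4 lost) and 7 with a crossed replicate block. The number higher was 0 as reported and 0 to 1 with 1 library left out. Signs turned for Spry2 (-0.57 without FGF13Aoe replicate 1 and 0.28 without FGF13Aoe replicate 2) and Spred1 (-0.24 and 0.44). Etv4 also missed the threshold with no intensity trend (adjusted p = 0.06681) and by edgeR (0.1216). Over all tested genes 2467 were higher and 2906 lower as reported, 551 to 2822 and 867 to 3447 with 1 library left out, 537 and 1086 by edgeR and 722 and 968 by DESeq2, both on 3 libraries. Fits with 1 control library give it the spread of the FGF13Aoe libraries, and fits with 1 FGF13Aoe library give it the smaller spread of the control libraries. The edgeR totals are out of 15204 genes and the DESeq2 totals out of 14319. The share of all genes called differed between settings, so the numbers lower of the 10 genes cannot be compared directly across them. With the replicate number as a block, 4 of the 10 genes were lower and none higher, with 2049 higher and 2647 lower over all genes, and no call on the 10 changed. Deviations of same-numbered libraries were weakly correlated across genes, which are not independent (r = -0.103). With 2 libraries per group, r cannot show whether the numbers pair the libraries, and the labels do not say. The crossed pairing was added after seeing this r and gave 2816 higher and 3257 lower (18.5% and 21.4% of all tested genes). Scaling by TMM or median centring shifted the median of all genes by 0.01 and 0.07 and changed no call on the 10 genes, but after median centring 2864 genes were higher and 2616 lower, so that higher calls outnumbered lower ones. Calls rest on 2 libraries per group, and the effect of read depth on them was not tested.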
